A study of Rattus norvegicus with 48 samples.

Results

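The blood-brain barrier of rats that were fed or fasted was examined for 5 genes of fuel transport: Slc16a1, Bsg, Slc2a1, Slc2a6 and Slc27a1. They are 5 of 32624 features counted in the files, and all 5 were among the 13050 features with at least 1 read in every sample. The members were chosen by their role in glucose, monocarboxylate and fatty acid uptake. The 4 Slc genes were also listed among 53 transporters that the study had called different between fed and fasted rats in these samples, so their differences from fed rats are given below as values without a test. Bsg was not in that list and was tested in each comparison.

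Cerebral endothelial cells (CECs) were purified from the cortex of male Wistar-Han rats that had been perfused to clear blood, by depleting CD11b+ cells and then retaining CD31+ cells on magnetic columns. The rats were fed ad libitum (AL) or deprived of food for 1 day (F1), 2 days (F2) or 3 days (F3). There were 12 samples, 3 per group (named i, j and k), each made from pooled cortices of several rats and each sequenced as 4 technical replicates whose counts were summed. Values therefore stand for pools and not for single rats.

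CECs separate blood from brain, and fuels cross them on carriers. Slc2a1 encodes GLUT1, the main glucose carrier of the barrier. Slc16a1 encodes MCT1, which moves lactate, pyruvate and ketone bodies together with a proton, and Bsg encodes basigin, a membrane glycoprotein with immunoglobulin domains that accompanies MCT1 to the cell surface. Slc2a6 encodes GLUT6, a glucose carrier found mainly on internal membranes, and Slc27a1 encodes FATP1, a protein of long-chain fatty acid uptake. In fasting, the liver releases ketone bodies that the brain can burn in place of part of its glucose.

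The sequences upstream of a start site of the 3 most abundant members are shown because these genes form the glucose and monocarboxylate route and their levels moved differently. Each is the 250 bases before the start site that the RefSeq promoter table gives on the rat build GRCr8, 5′ to 3′, and all 5 members were matched by symbol. The table gives 1 start per gene. For Slc16a1 that start lies inside the annotated gene, whose first base is 194805556 on chromosome 2, so the window precedes a downstream transcript start. The Slc27a1 window, searched but not shown, also lies inside its gene. Capitals mark the letters CACGTG (an E-box), ACGTG (the core of a hypoxia response element) and GGGCGG (a GC box), searched on both strands. CACGTG holds ACGTG on each strand, so those matches overlap. The windows lie at chr2:194812410-194812659 on the plus strand (Slc16a1), chr7:10651006-10651255 on the minus strand (Bsg) and chr5:138002272-138002521 on the plus strand (Slc2a1).
Slc16a1: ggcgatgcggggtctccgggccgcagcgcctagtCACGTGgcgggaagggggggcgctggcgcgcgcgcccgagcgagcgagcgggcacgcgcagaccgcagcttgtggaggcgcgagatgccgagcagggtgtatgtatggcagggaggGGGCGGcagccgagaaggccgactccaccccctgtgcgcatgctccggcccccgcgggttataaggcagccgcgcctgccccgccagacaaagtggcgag
Bsg: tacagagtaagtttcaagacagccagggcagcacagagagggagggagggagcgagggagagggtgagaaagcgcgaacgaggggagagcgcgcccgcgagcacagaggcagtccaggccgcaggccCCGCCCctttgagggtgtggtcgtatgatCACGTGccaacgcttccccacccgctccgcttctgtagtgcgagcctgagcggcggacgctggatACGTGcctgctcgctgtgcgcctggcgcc
Slc2a1: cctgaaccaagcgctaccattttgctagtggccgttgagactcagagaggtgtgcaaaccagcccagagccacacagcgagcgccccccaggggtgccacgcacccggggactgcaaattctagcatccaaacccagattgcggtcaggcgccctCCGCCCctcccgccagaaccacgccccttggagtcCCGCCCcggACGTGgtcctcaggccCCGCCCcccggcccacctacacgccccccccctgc
The windows of Slc16a1 and Bsg each held 1 CACGTG, from 216 to 211 bases before the start in Slc16a1 and from 94 to 89 bases before it in Bsg. The Bsg window also held an ACGTG outside its CACGTG, from 29 to 25 bases before the start. The Slc2a1 window held no CACGTG but 1 ACGTG, from 51 to 47 bases before the start, and 3 GC boxes against 1 in each of the other two. Of 33469 windows of the same length in the table, 5.59% held CACGTG, 16.6% held ACGTG and 30.5% held GGGCGG. The windows of Slc2a6 and Slc27a1 held neither CACGTG nor ACGTG. A direct repeat of the half-site AGGTCA with 1 base between (AGGTCANAGGTCA), the form bound by the peroxisome proliferator-activated receptors (PPARs), was in none of the 5 windows and in 0.0508% of all windows, and a single AGGTCA was in that of Slc27a1 alone among the members, against 14.1% of all windows. A match is a run of letters and not a measured binding site. At a share of 0.0508%, absence of the direct repeat from 5 windows was the likely outcome for any genes. Sites outside the windows or with other letters were not searched, so nothing is read from that absence.

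The depth was similar across samples, from 20718644 to 25960874 assigned reads. The endothelial markers with an identifier here, Pecam1, Adgrl4 and Adgrf5 (3 of 8 listed), were abundant in every sample, with a summed level of 150573 to 199595 normalized counts. The lowest sum was in F2 sample j, and the other 11 samples began at 184511 in AL and higher elsewhere. Of the other cell types, 3 of 8 mural cell markers (Abcc9, Anpep, Acta2) summed to 1689 to 4744 normalized counts, the 1 measured astrocyte marker (Aldoc, of 7) lay between 1530 and 2277, the 6 measured microglia markers (of 8) summed to 56.7 to 134, and Alas2, the 1 measured red blood cell marker of 4, lay between 36.1 and 110. Of these, Adgrl4 alone passed the threshold against AL, with a log2 difference of 0.39 ± 0.09 (SE) on day 1 and 0.49 ± 0.09 on day 3, and its part in the results below was not tested. No neuron or oligodendrocyte marker had an identifier here. The study itself reported a high purity of the isolated cells by CD31 staining and flow cytometry. It also reported that glial, neuronal and mural transcripts were very low or not detected. F2 sample j stood apart, with a root mean square deviation of 0.24 log2 units from its group mean over 9459 features against 0.10 to 0.16 in the others, and the main values of F2 are given with and without it where it moved them.

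Slc2a1 had more reads than any other feature in 12 of 12 samples, and Bsg ranked between 2 and 8. Reads of Slc2a1 made up 1.12% to 1.73% of all assigned reads and those of Bsg 0.62% to 0.905%. Slc16a1 ranked between 69 and 308, with 0.0486% to 0.156% of reads. Slc27a1 came lower, at rank 2180 to 2737. Slc2a6 was barely detected, with 11 to 37 reads per sample. Together the 5 genes took 1.99% ± 0.0786 (SD, n = 3) of reads in AL, 2.38% ± 0.117 in F1, 2.49% ± 0.198 in F2 and 2.46% ± 0.0494 in F3. These are shares of reads and not per transcript length, so they do not rank the genes by number of molecules.

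Slc16a1, the carrier of lactate and ketone bodies, was lowest in fed rats and highest on the second day of fasting. Its normalized read counts were 16911, 11620 and 13395 in AL samples i, j and k, and 19507, 17968 and 24227 in the F1 samples. They were 31256, 36341 and 32859 in F2 and 22422, 24493 and 25556 in F3. All 9 fasted samples lay above the 3 fed ones, the F2 samples lay above all others, and F1 and F3 overlapped. The log2 fold change (LFC) against AL was 0.56 ± 0.14 (SE) on day 1, 1.26 ± 0.14 on day 2 and 0.79 ± 0.14 on day 3, or 1.47-, 2.40- and 1.73-fold. From day 1 to day 2 it was 0.70 ± 0.14, from day 2 to day 3 −0.47 ± 0.14, and from day 1 to day 3 0.23 ± 0.14. The day 2 maximum was known when the gene was chosen, so none of these is tested here. Without F2 sample j, the LFC of F2 was 1.20 ± 0.15 against AL and 0.64 ± 0.15 against F1, and that of F3 against F2 was −0.41 ± 0.15. By rank of read count, the median place of Slc16a1 went from 236 in AL to 151 in F1, 78 in F2 and 121 in F3. In bulk samples, more RNA per cell and more cells of a type cannot be told apart. The summed endothelial markers had means of 188233 normalized counts in AL, 196847 in F1, 179851 in F2 (194491 without sample j) and 198591 in F3. The summed mural cell markers had means of 2988, 2198, 3849 and 3020 (4548 in F2 without sample j). All 3 of them had their highest mean in F2, as Slc16a1 did. Acta2, an actin of contractile cells, had means of 162, 204, 289 and 223 and an LFC on day 2 of 0.83 ± 0.31 (adjusted p = 0.278). Abcc9 had means of 2431, 1743, 3066 and 2434, and Anpep of 394, 251, 494 and 363. Their LFCs on day 2 were 0.33 ± 0.39 (edgeR quasi-likelihood test, adjusted p = 0.769) and 0.32 ± 0.34 (adjusted p = 0.737). Within F2, sample j had the highest Slc16a1 but the lowest Abcc9 (1809, against 3408 and 3980) and Anpep (376, against 577 and 529). Its Acta2 (266) lay between those of the other F2 samples (366 and 236). On day 1 the mean of Acta2 was above that of AL, as for Slc16a1, and those of Abcc9 and Anpep were below it. The part of these markers in the course of Slc16a1 was not tested.

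**Figure D1:**
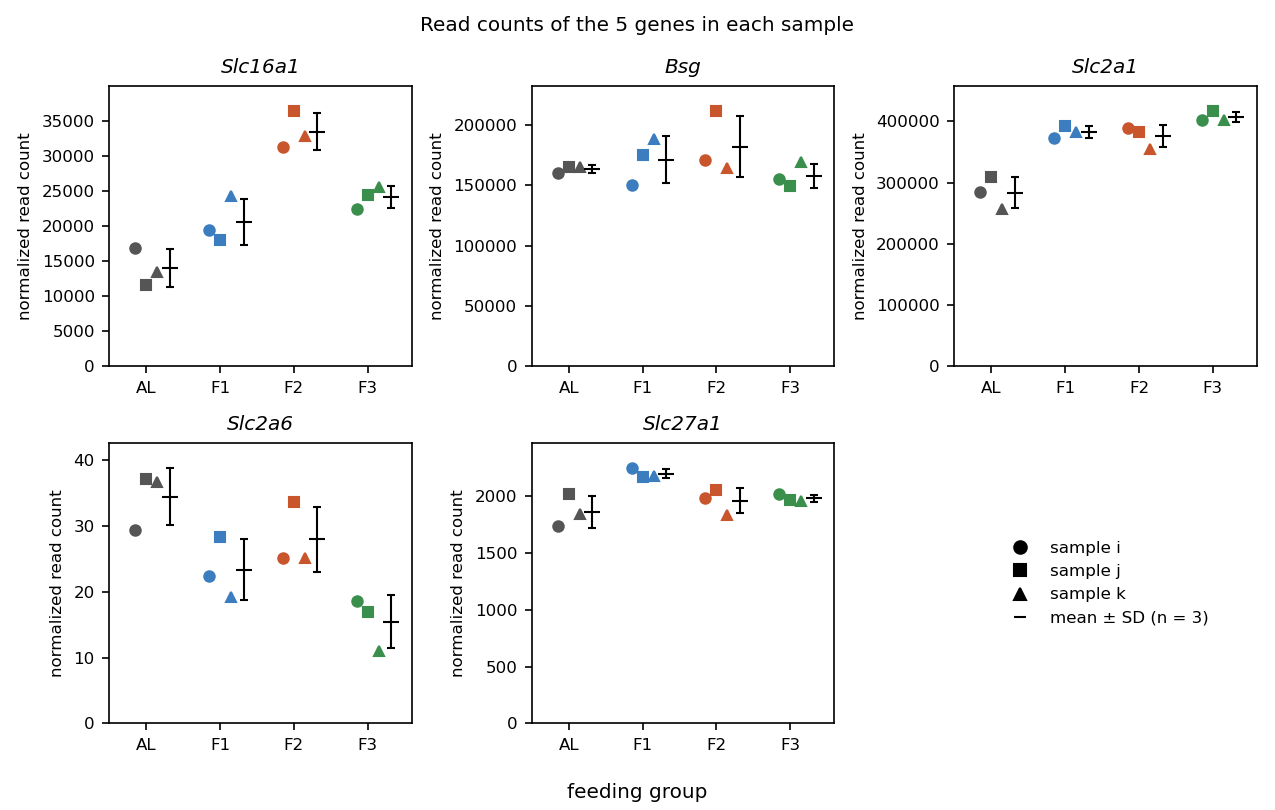
Normalized read count of each gene (vertical axis, from 0, its own scale per panel) in the 3 samples of each feeding group (horizontal axis), with the mean ± SD beside the points. Slc16a1 peaks in F2 at 31256 to 36341, Slc2a1 is higher in all 9 fasted samples than in the fed ones, and Bsg overlaps between all groups.

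Slc2a1, the glucose carrier, was higher in all fasted groups and by a similar amount on each day. Its normalized read counts were 284995, 309123 and 257320 in AL, and 373385, 392818 and 383328 in F1. They were 389016, 382257 and 355200 in F2 and 401902, 416026 and 402805 in F3. No fasted sample overlapped the fed samples, F1 and F2 overlapped, and the 3 F3 samples lay above the rest. The LFC against AL was 0.43 ± 0.09 on day 1, 0.40 ± 0.09 on day 2 and 0.52 ± 0.09 on day 3, or 1.35-, 1.32- and 1.43-fold. Between fasting days, which were not used to list Slc2a1 but share the fasted samples, no difference passed the threshold of 0.05 in the quasi-likelihood test of edgeR, with p-values adjusted over all features by Benjamini-Hochberg. F2 differed from F1 by −0.03 (95% CI −0.22 to 0.16, adjusted p = 0.902), F3 from F2 by 0.12 (−0.07 to 0.30, adjusted p = 0.472) and F3 from F1 by 0.09 (−0.10 to 0.28, adjusted p = 0.996). The SD between samples was 9.13% of the mean in AL and 1.94% to 4.77% in the fasted groups.

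Bsg, the partner of MCT1, did not pass the threshold in any of the 6 comparisons. Its normalized read counts were 159908, 165446 and 165432 in AL, and 149984, 175228 and 187914 in F1. They were 170526, 211037 and 164293 in F2 and 155030, 149381 and 168854 in F3. Every neighbouring pair of groups in the order F3, AL, F1, F2 overlapped, and the value of F2 sample j was the highest of all. The LFC against AL was 0.06 (95% CI −0.17 to 0.30, adjusted p = 0.794) on day 1, 0.15 (−0.08 to 0.39, adjusted p = 0.609) on day 2 and −0.05 (−0.29 to 0.19, adjusted p = 0.821) on day 3. These intervals run from −18.2% to 31.1% over the 3 days, so a change of that size in Bsg could not be told from the spread between samples. Between fasting days the LFC was 0.09 (F2 against F1, adjusted p = 0.731), −0.21 (F3 against F2, adjusted p = 0.298) and −0.12 (F3 against F1, adjusted p = 0.996). Without F2 sample j, the day 2 LFC against AL was 0.03 (−0.17 to 0.24, adjusted p = 0.916), and that of F2 against F1 was −0.03 (adjusted p = 0.905). The CV was 1.95% among the AL samples, 11.3% in F1, 13.9% in F2 and 6.35% in F3.

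Slc27a1, the fatty acid uptake protein, varied within a narrow range and was highest on day 1. Its normalized read counts were 1734, 2017 and 1840 in AL and 2245, 2173 and 2176 in F1. They were 1988, 2056 and 1838 in F2 and 2019, 1969 and 1959 in F3. The F1 samples lay above all others, and AL, F2 and F3 overlapped. The LFC against AL was 0.24 ± 0.07 on day 1, 0.07 ± 0.07 on day 2 and 0.09 ± 0.07 on day 3. F2 differed from F1 by −0.16 (95% CI −0.31 to −0.01, adjusted p = 0.242), F3 from F2 by 0.02 (−0.13 to 0.17, adjusted p = 0.923) and F3 from F1 by −0.15 (−0.30 to 0.00, adjusted p = 0.996), none past the threshold. Without F2 sample j, F2 differed from F1 by −0.20 (adjusted p = 0.153), from AL by 0.04 ± 0.07, and F3 from F2 by 0.05 (adjusted p = 0.747).

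Slc2a6, the internal glucose carrier, was lowest on day 3, at counts near the limit of the depth. Its normalized read counts were 29.4, 37.1 and 36.7 in AL and 22.4, 28.4 and 19.3 in F1. They were 25.1, 33.7 and 25.1 in F2 and 18.6, 16.9 and 10.9 in F3. The F3 samples lay below all others, and the other 3 groups formed an overlapping series. The LFC against AL was −0.56 ± 0.27 on day 1, −0.30 ± 0.26 on day 2 and −1.14 ± 0.28 on day 3. Between fasting days, F3 differed from F2 by −0.84 (95% CI −1.45 to −0.24, adjusted p = 0.0938), F2 from F1 by 0.26 (−0.32 to 0.84, adjusted p = 0.674) and F3 from F1 by −0.58 (−1.20 to 0.04, adjusted p = 0.996). Without F2 sample j, the highest fasted value, these were −0.69 (−1.37 to −0.01, adjusted p = 0.249) for F3 against F2, 0.10 (−0.55 to 0.76, adjusted p = 0.899) for F2 against F1 and −0.45 ± 0.30 for F2 against AL. The spread between samples of a group averaged 19.0% of the mean, and counting error alone gives 20.7% at these counts. The same comparison gave 12.4% against 0.688% for Slc16a1, 8.39% against 0.245% for Bsg, 4.59% against 0.168% for Slc2a1 and 4.20% against 2.24% for Slc27a1. For those 4 genes the spread between samples, averaged over the groups, thus exceeded counting error. That of Slc27a1 was above 2.24% in AL (7.67%) and F2 (5.67%) and below it in F1 (1.85%) and F3 (1.61%). The 4 technical replicates of a sample scattered close to counting error, and their chi-square statistic divided by its degrees of freedom was 0.86 to 1.37 over the members.

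**Figure D2:**
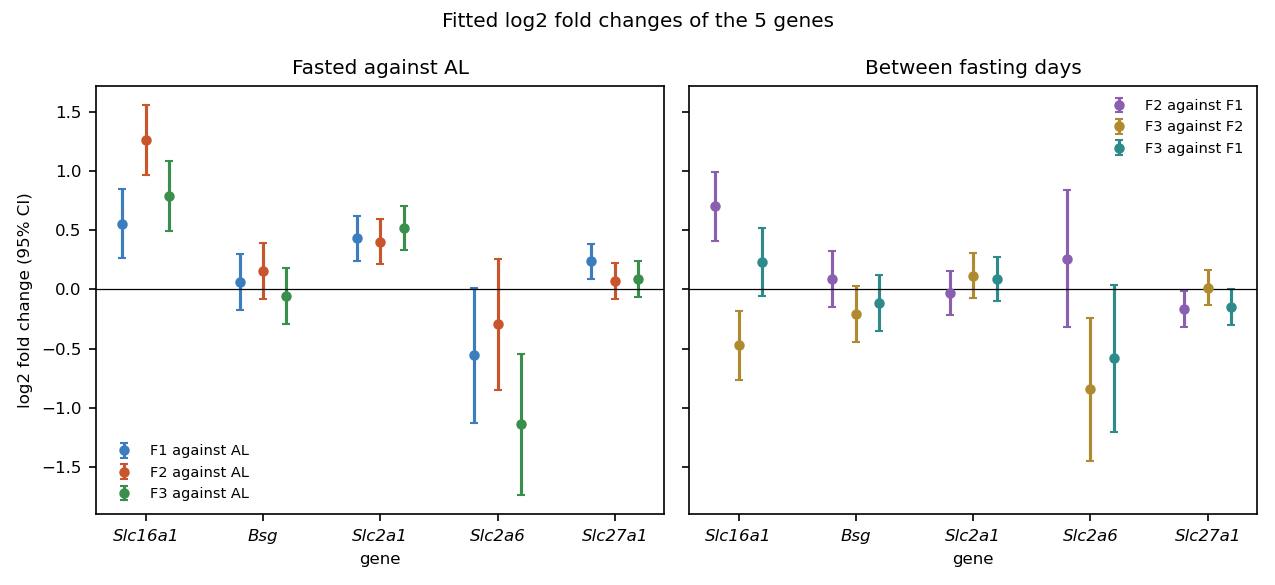
Log2 fold change (vertical axis) of each gene (horizontal axis) for the 3 fasted groups against AL (left) and between fasting days (right), with 95% confidence intervals of the fit. Slc16a1 reaches 1.26 on day 2, Slc2a1 stays between 0.40 and 0.52, and the intervals of Bsg include 0 in all 6 comparisons.

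Read over all features, 2 of the 5 members (Slc16a1 and Slc2a1) passed an adjusted p of 0.05 against AL on day 1, where 6.56% of the 13050 features did. On day 2 it was 1 member (Slc16a1) against 0.858% of features, and on day 3 it was 3 (Slc16a1 and Slc2a1 higher, Slc2a6 lower) against 12%. Since these contrasts helped list the Slc genes, nothing is read from those counts. Of the 4 members tested between fasting days, none passed, against 1.43% of features for F2 against F1, 5.94% for F3 against F2 and 0.00% for F3 against F1. In the last comparison edgeR called 0 features, with 579 at an unadjusted p under 0.05, and DESeq2 called 24. The share for F2 against F1 rests on few samples, since 0 features were called without F1 sample j and 4 without F1 sample i, and F3 against F2 went from 775 to 164 without F3 sample i.

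The ratios of reads within a sample show how the genes moved against each other without a scaling factor. There were 8.57 ± 1.82 (SD, n = 3) reads of Slc16a1 per 100 reads of Bsg in AL, 12.1 ± 1.56 in F1, 18.5 ± 1.40 in F2 and 15.3 ± 0.981 in F3. The ratio was thus 2.16 times the fed value on day 2 and 1.79 times on day 3. The AL and F1 samples overlapped in it (7.02 to 10.6 against 10.3 to 13.0), and F2 lay above all others. Against Slc2a1, Slc16a1 stood at 4.97 ± 1.11 reads per 100 in AL, 5.37 ± 0.882 in F1, 8.93 ± 0.787 in F2 and 5.94 ± 0.385 in F3, so that F2 alone was separated from the rest. Bsg per 100 reads of Slc2a1 was 58.0 ± 5.62 in AL, 44.6 ± 4.43 in F1, 48.4 ± 5.99 in F2 and 38.8 ± 3.01 in F3. The 3 AL samples (53.5 to 64.3) overlapped with F2 (43.8 to 55.2) through F2 sample j alone, and not with F1 or F3. Without that sample F2 ran from 43.8 to 46.3, and the F2 means were 45.0 for this ratio, 19.2 for Slc16a1 against Bsg and 8.64 for Slc16a1 against Slc2a1. Relative to the endothelial marker Pecam1, whose own LFC against AL was 0.16 ± 0.07 on day 1, −0.04 ± 0.07 on day 2 and 0.03 ± 0.07 on day 3, Slc2a1 was 1.21, 1.36 and 1.40 times the fed ratio on days 1, 2 and 3, and Slc16a1 was 1.31, 2.45 and 1.67 times. These ratios contain the contrasts that chose the Slc genes and are given with no test.

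**Figure D3:**
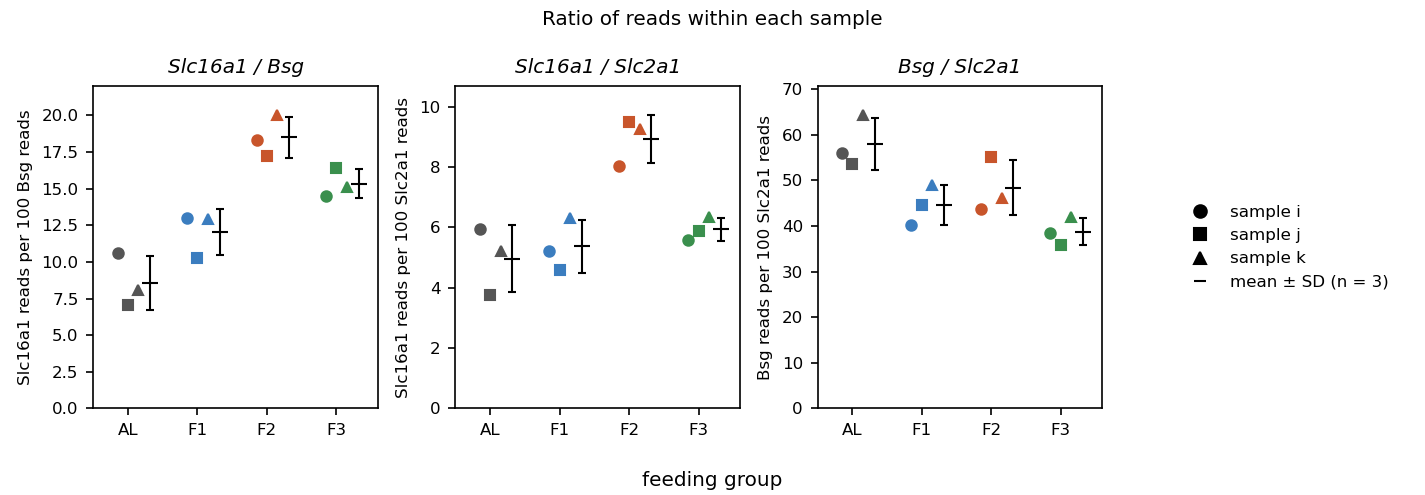
Reads of the first gene per 100 reads of the second (vertical axis, from 0) in each sample of the 4 feeding groups (horizontal axis), with the mean ± SD. Slc16a1 against Bsg goes from 8.57 in AL to 18.5 in F2, and Bsg against Slc2a1 is highest in AL (58.0). Slc16a1 against Slc2a1 is highest in F2 (8.93), the only group whose samples lie apart from the rest.

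Whether the genes varied together among samples of one group was examined with the deviations of log2 CPM (counts scaled to library size) from the group mean, which the choice of members did not use. Slc2a6 was left out for its low counts. Over the 12 samples, Slc16a1 and Bsg had Pearson's r = 0.35 and Spearman's rho = 0.23 (exact permutation within groups, two-sided, p = 0.304 and 0.512, adjusted over the 6 pairs p = 0.616 and 0.656). The other 5 pairs had r from −0.52 (Slc16a1 and Slc27a1, rho = −0.44, exact permutation p = 0.235 and 0.271) to 0.54 (Slc2a1 and Slc27a1, rho = 0.34, exact permutation p = 0.358 and 0.427). The remaining values of r were −0.21 for Slc16a1 and Slc2a1 (rho = −0.26, exact permutation p = 0.805 and 0.546), 0.20 for Bsg and Slc2a1 (rho = 0.23, exact permutation p = 0.513 and 0.537) and 0.28 for Bsg and Slc27a1 (rho = 0.09, exact permutation p = 0.496 and 0.813). Adjusted over the 6 pairs, the exact permutation p-values were 0.616 to 0.805 for r and 0.656 to 0.813 for rho, so no relation passed the threshold. Without the 2 samples farthest from the median of the first gene, r was 0.34 for Slc16a1 and Bsg, −0.39 for Slc16a1 and Slc2a1, −0.30 for Slc16a1 and Slc27a1, 0.08 for Bsg and Slc2a1, 0.24 for Bsg and Slc27a1 and 0.37 for Slc2a1 and Slc27a1. Each point shares its scaling factor between both genes. F2 sample j and F1 sample k were above their group means in both Slc16a1 (by 0.12 and 0.25 log2 units) and Bsg (by 0.22 and 0.14).

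**Figure D4:**
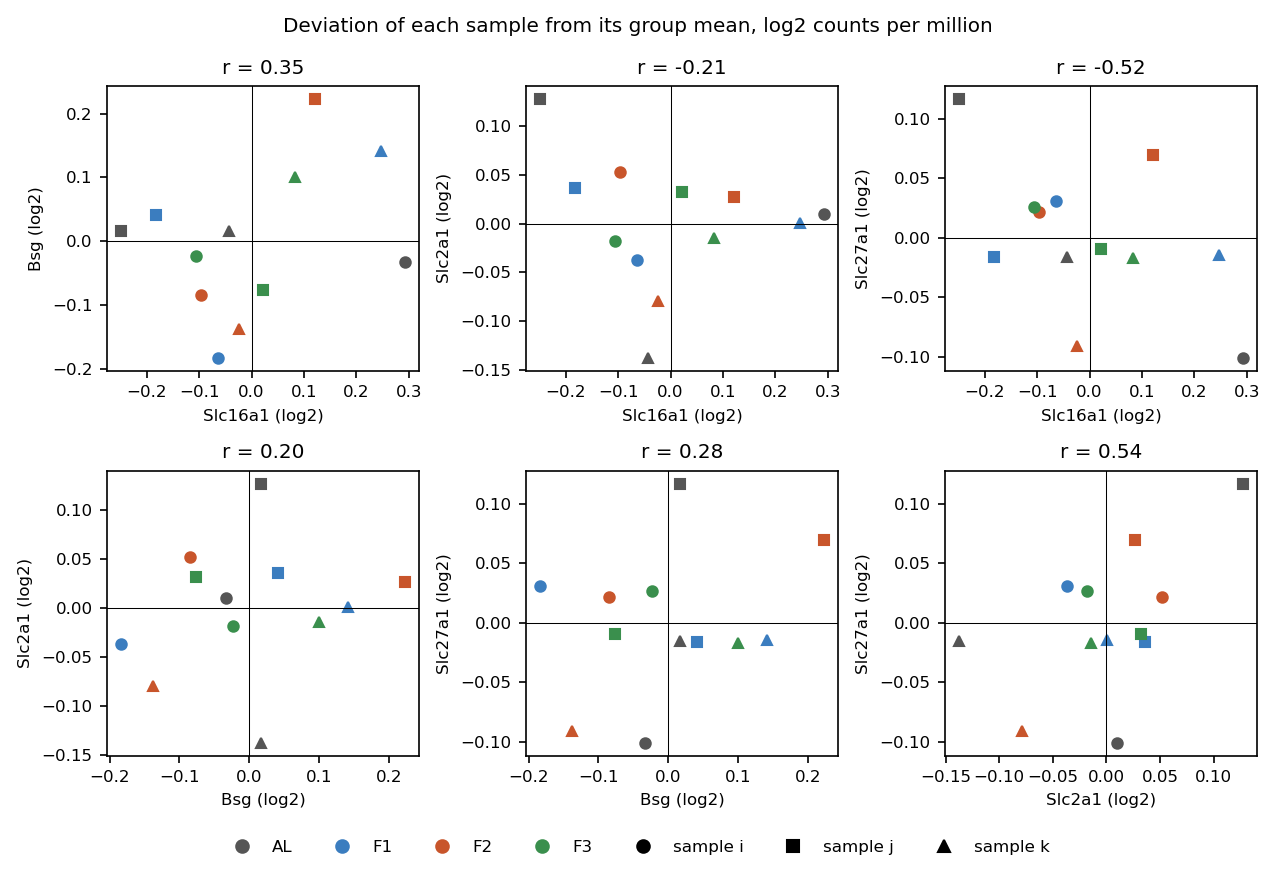
Deviation of each of the 12 samples from its group mean in log2 CPM, one gene per axis, for the 6 pairs of 4 genes, with Pearson's r above each panel. The r values lie between −0.52 and 0.54, and none passed the permutation test.

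The pathway around these genes could be followed only as far as identifiers were paired with symbols. Of 14 other glucose carriers listed, 1 was measured with a symbol (Slc2a12), of 17 other monocarboxylate carriers 1 (Slc16a4), of 18 fatty acid carriers and acyl-CoA synthetases 4 (Acsl1, Acsl3, Acsl4, Acsl5), and of the 2 other basigin family genes and the 7 hexokinases and lactate dehydrogenases none. Slc2a12 and Slc16a4 come from the same list of transporters chosen on these samples, so their counts are not independent evidence. Against AL, 4 of the 6 genes passed the threshold on day 1 (1 higher, 3 lower), 0 on day 2 and 4 on day 3 (1 higher, 3 lower) in edgeR, where 6.56%, 0.858% and 12% of all features did. On both days 2 of the 4 were Slc2a12 and Slc16a4, so only the Acsl genes, 2 of 4 lower on each of those days, stand outside that list. On day 2, 2 of the 6 (Slc2a12 and Acsl4) had an unadjusted p under 0.05, and DESeq2 called 1 (Slc2a12). Without F2 sample j, the unadjusted p of the edgeR test was 0.137 for Acsl4 and stayed under 0.05 for Slc2a12. The median LFC over all features was between −0.01 and 0.00 on each day.

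Slc2a12, encoding the glucose carrier GLUT12, went the same way as Slc2a1. Its normalized read counts were 1764, 1828 and 2358 in AL, 3920, 3921 and 3888 in F1, 4308, 1839 and 3795 in F2, and 3758, 4475 and 3981 in F3. All fasted samples but F2 sample j lay above the fed ones. The LFC was 0.98 ± 0.24 on day 1, 0.74 ± 0.24 on day 2 and 1.04 ± 0.24 on day 3. Without F2 sample j it was 1.03 ± 0.11 on day 2. Slc16a4, encoding a monocarboxylate carrier family member of little known substrate, was lower than in fed rats on days 1 and 3. On day 2 it was near the fed level, while Slc16a1 was higher than in fed rats on days 1, 2 and 3. The counts of Slc16a4 were 3236, 2998 and 2871 in AL, 2592, 2078 and 2301 in F1, 2825, 2842 and 2952 in F2, and 2451, 2631 and 2109 in F3. The F1 and F3 samples lay below AL and F2, with an LFC of −0.39 ± 0.09, −0.08 ± 0.09 and −0.34 ± 0.09 on days 1, 2 and 3. From F1 to F2 the LFC of Slc16a4 was 0.31 ± 0.09 and from F2 to F3 −0.26 ± 0.09, neither past the threshold. Both had the same sign as those of Slc16a1.

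The acyl-CoA synthetases activate long-chain fatty acids after uptake, a step that FATP1 can also catalyse. Acsl1 fell by 0.30 ± 0.08 on the log2 scale on day 1 (adjusted p = 0.0422) and by 0.36 ± 0.08 on day 3 (adjusted p = 0.0112), with an LFC of 0.03 ± 0.08 on day 2 (adjusted p = 0.899). Acsl3 fell by 0.36 ± 0.09 on day 1 (adjusted p = 0.0359) and by 0.42 ± 0.09 on day 3 (adjusted p = 0.00955), with 0.07 ± 0.09 on day 2 (adjusted p = 0.783). The Acsl3 counts were 1974, 1595 and 2029 in AL, 1367, 1444 and 1565 in F1, 1879, 1971 and 2040 in F2, and 1302, 1466 and 1428 in F3. F2 thus overlapped AL and lay above F1 and F3, and Acsl3 differed between F2 and F1 (0.43 ± 0.09, adjusted p = 0.0411) and between F3 and F2 (−0.49 ± 0.09, adjusted p = 0.0106). Acsl1 fell from F2 to F3 by 0.39 ± 0.08 (adjusted p = 0.0151), and its difference between F2 and F1, 0.33 ± 0.08, did not pass (adjusted p = 0.0583). Acsl4 and Acsl5 did not pass in any comparison, with LFCs against AL of −0.30 to −0.10 and −0.01 to 0.03. The −0.30 of Acsl4 was on day 2, and without F2 sample j it was −0.16 ± 0.10. The calls rested on few samples: leaving out any 1 of the 6 AL and F1 samples left 0 to 2 of the 4 day 1 calls. Without AL sample i, the day 1 adjusted p was 0.186 for Acsl1 and 0.139 for Acsl3, and without F1 sample j it was 0.146 and 0.129. On day 3, Acsl1 was lost without AL sample i (adjusted p = 0.0619) and without F3 sample k (0.0553), and Acsl3 without F3 sample i (0.0573). The Acsl3 difference between F2 and F1 was lost without any 1 of the 6 F1 and F2 samples (adjusted p from 0.0532 to 0.182). From F2 to F3, Acsl1 was lost without F3 sample i or k (adjusted p = 0.0695 and 0.0657) and Acsl3 without F3 sample i (adjusted p = 0.0632).

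**Figure D5:**
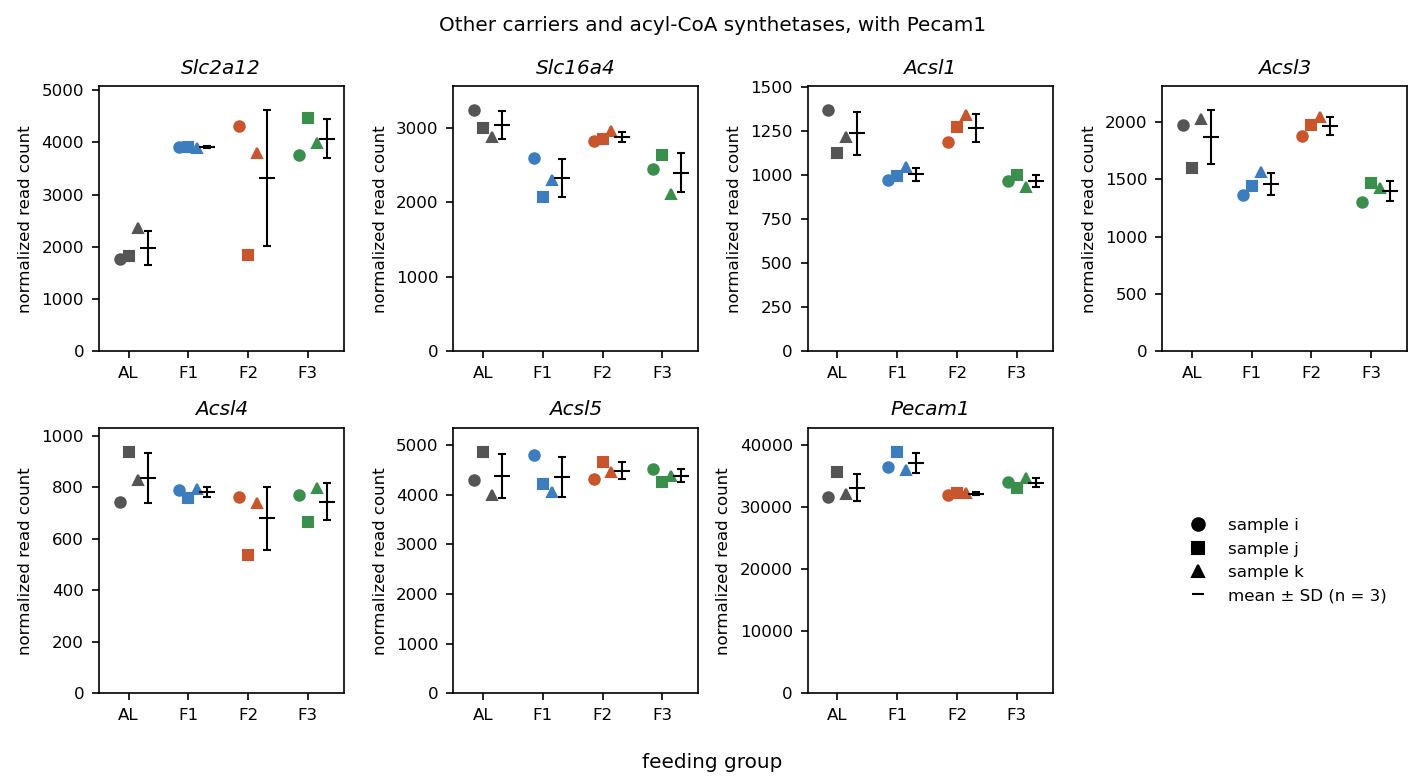
Normalized read count (vertical axis, from 0) of Slc2a12, Slc16a4, 4 acyl-CoA synthetase genes and the endothelial marker Pecam1 in each sample of the 4 feeding groups (horizontal axis), with the mean ± SD. Slc2a12 is at 1839 in F2 sample j, within the fed range, and Slc16a4, Acsl1 and Acsl3 are lower in F1 and F3 than in F2.

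The genes with the most similar course over the 12 samples were sought by Pearson's r of log2 CPM among 1263 genes with a symbol and a mean of at least 100 normalized counts. These symbols cover the start of the alphabet and features named by symbol, such as Pecam1. They also cover the list of transporters that the study called different between fed and fasted rats in these samples. A transporter found through that list was thus not chosen apart from the fasting contrasts. A closer gene could lie outside the symbols, so the number of all features at high r is given too. The values describe likeness, and all genes of a sample share its scaling factor. For Slc16a1 the highest r were 0.91 for Adtrp, a membrane protein that regulates tissue factor pathway inhibitor, 0.81 for Bdkrb2, a bradykinin receptor, 0.79 for Slc52a2, a riboflavin carrier, 0.78 for Arl4a, a small GTPase, and 0.76 for Ackr3, an atypical chemokine receptor. Adtrp had mean counts of 2292, 2420, 2983 and 2568 in AL, F1, F2 and F3, and Bdkrb2 of 862, 1182, 1737 and 1142, both highest in F2 as Slc16a1 was. Over all 9458 other features at that level, 2 had a higher r with Slc16a1 than Adtrp, and 3 reached 0.9.

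For Bsg, 53 features reached an r of 0.9. The 5 highest with a symbol were Atp6v1g1, a subunit of the vacuolar proton pump (0.96), Bcl7c (0.96), Apoe, an apolipoprotein (0.95), Atf5, a transcription factor (0.95), and Atp5i, a subunit of mitochondrial ATP synthase (0.93). Like Bsg they differed little between groups: Apoe had means of 41907, 42573, 44000 and 39439 in AL, F1, F2 and F3, with SDs of 613, 6034, 6791 and 2517. The SD of Apoe was thus, as that of Bsg, smallest in AL and largest in F2.

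For Slc2a1, 68 features reached 0.9, with B3gnt2, a glycosyltransferase (0.97), Alas1, the first enzyme of heme synthesis (0.95), Baiap2 (0.95), Agpat2, an acyltransferase of phospholipid synthesis (0.94), and Caskin1 (0.93) as the highest with a symbol. B3gnt2 had means of 19591, 23161, 23344 and 24237 in AL, F1, F2 and F3, with LFCs against AL of 0.24, 0.25 and 0.31, smaller than those of Slc2a1. Alas1 went from 12406 to 23204, 22317 and 28278, a larger change. For Slc27a1 the highest were Atp13a1 (0.84), Bdh1, which interconverts the ketone bodies acetoacetate and 3-hydroxybutyrate (0.83), Slc35e4 (0.82), Agfg2 (0.82) and Angpt2, an angiopoietin (0.81), and 2 features reached 0.9. Bdh1 had means of 256, 341, 280.2 and 269, highest in F1 as Slc27a1 was. Among the members themselves, r over the 12 samples was 0.67 for Slc16a1 and Slc2a1, 0.59 for Slc2a1 and Slc27a1, 0.38 for Slc16a1 and Bsg, and 0.08 to 0.21 for the other 3 pairs.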

How the data were processed

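RNA of CECs from 12 samples (4 groups of 3, each sequenced as 4 technical replicates) was measured by poly(A) RNA sequencing with a stranded kit. The authors deposited raw read counts per feature, made by STAR alignment to Rnor_6.0 with multi-mapping reads removed and HTSeq-count 0.5.3, so reads shared by near-identical genes are not counted. Whether counting used strand is not given in the sources used here. Technical replicates were summed. One of the 48 libraries (F1 sample k, replicate d) carries the title of F1 and the treatment of a 2 day fast. It was kept in F1 by its title, and an alternative left it out.

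Features with at least 1 read in every sample (13050) were scaled by TMM and fitted in 1 edgeR 4.0.16 model with 4 group means (quasi-likelihood test, robust settings, R 4.3.3). Normalized counts are counts divided by the effective library size relative to the mean. Adjusted p-values are Benjamini-Hochberg over all 13050 features, with a threshold of 0.05, and standard errors are of the log2 fold change. The log2 CPM values used a prior count of 2. DESeq2 1.42.0 and other scalings, filters, a replicate block and samples left out were tried as alternatives. The replicates are separate pools of rats, per the methods of the study.

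The depth, 20718644 to 25960874 reads per sample and 5111930 to 6531336 per library, gives a counting error under 1% for Slc16a1, Bsg and Slc2a1. Symbols came from 2 supplementary tables that pair identifiers with symbols, one of them held in part. Some features, such as Pecam1, carried the symbol in their own name. Together the symbols covered 2043 of the features tested. The 5 genes and all lists were chosen with earlier results of these data known. Named were the 5 members, the genes of each list called against AL or among the 3 highest, the marker genes with an identifier, and the 5 genes most similar to each of 4 members. Transcript lengths were not used here, so levels are not compared between genes. RefSeq windows on GRCr8 were not placed on Rnor_6.0.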

Additional observations from a re-analysis of the deposited data

How the results depend on the processing

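All values of the members against AL kept their direction and stayed within 1 SD of the reported value under the 9 other settings, and no tested value of Bsg or between fasting days crossed the threshold. The LFC of Slc16a1 on day 2 ran from 1.22 to 1.28 over them and that of Slc2a1 on day 3 from 0.48 to 0.53. The sign changed, always near 0 and not past the threshold, for Slc27a1 between F3 and F2 with upper-quartile scaling (-0.0012). With 1 sample left out, the LFC of Bsg ran from -0.0083 to 0.15 for F1 against AL and from -0.031 to 0.16 for F2 against F1, that of Slc2a1 from -0.0555 to 0.0092 for F2 against F1, and that of Slc27a1 from -0.028 to 0.0513 for F3 against F2. The correlation of deviations of Slc16a1 and Slc2a1 was 0.0105 with total counts and 0.0768 with the means of the sample letters removed. Of the 6 other family genes, the main fit called 4 on day 1, 0 on day 2 and 4 on day 3. The 9 other settings called 2 to 4 on day 1, with 2 where low counts were not filtered. They called 0 to 1 on day 2 (1 with DESeq2) and 3 to 4 on day 3. Leaving out 1 sample gave 0 to 2 on day 1, 0 to 1 on day 2 and 1 to 4 on day 3. With the sample letter as a replicate block, 3 of the 6 were called on day 1, and the calls over all features for F2 against F1 went from 186 to 108. The study states that the RNA came from 3 independent experiments, but the labels do not say whether a letter marks one of them. Same-letter samples had correlations of deviations from -0.11 to 0.21 (median 0.05), and other pairs from -0.25 to 0.28 (median -0.07). These values do not settle whether the letters pair samples, and the main fit assumed no pairing. The block took no tested value of a member past the threshold. DESeq2 called 359 features for F2 against AL (112 in edgeR), 616 for F2 against F1 (186) and 1228 for F3 against F2 (775). A fit of the 6 samples compared called 0, 65 and 260. With 1 of the compared samples left out, the features called ranged from 306 (without F1 sample j) to 755 for F1 against AL, from 34 (without AL sample k) to 157 for F2 against AL, from 790 (without F3 sample i) to 1270 for F3 against AL, from 0 (without F1 sample j; 4 without F1 sample i) to 139 for F2 against F1, from 164 (without F3 sample i) to 691 for F3 against F2 and from 0 to 1 for F3 against F1. Total counts alone gave 375 higher and 593 lower features on day 1 (505 and 351 with TMM), 64 and 75 on day 2 (64 and 48) and 664 and 955 on day 3 (819 and 753), and upper-quartile scaling 87 and 42 on day 2. The cause of these differences was not tested. The counts of Slc2a6 (11 to 37 reads) limit what can be said of it.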
